A study of Mus musculus with 24 samples.

Results

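The MHC class I pathway was followed through 10 genes in mouse peritoneal macrophages. They are the light chain B2m, the classical heavy chains H2-K1 and H2-D1, the nonclassical heavy chains H2-T23 and H2-M3, the peptide transporter subunits Tap1 and Tap2, the loading factor Tapbp, the trimming peptidase Erap1 and the transactivator Nlrc5. They were chosen by name, with earlier results of these data known. All 10 matched 1 row each among the 54532 features of the count table. All 10 passed the filter on low counts that left 14692 genes for testing. Polyadenylated RNA was sequenced in 24 libraries, 4 in each of 6 groups. The groups were resting cells (M0), cells given LPS and IFN-γ (M1), cells given IL4 (M2), and each of these states with ONX-0914, written M0+ONX, M1+ONX and M2+ONX. Each library pooled cells of 2 to 3 mice, and the submitters describe the 4 libraries of a group as independent. The labels name no strain, age, dose or treatment time, so the haplotype of the MHC genes is not known. ONX-0914 is an inhibitor selective for the LMP7 subunit of the immunoproteasome, which Psmb8 encodes.

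Class I molecules carry short peptides, mostly cut from cytosolic proteins by the proteasome, to the cell surface, where CD8+ T cells and NK cells read them. The TAP transporter moves the peptides into the endoplasmic reticulum, tapasin (Tapbp) bridges the transporter to empty class I molecules, and ERAP1 trims peptides to length. Interferons raise the pathway through IRF1 and NLRC5, among other factors. NLRC5 binds no DNA by itself and acts with RFX, CREB/ATF and NF-Y proteins on a composite element of class I promoters whose parts are known as the X and Y boxes.

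The promoter letters of that element are shown because 4 of the members held 2 of its motifs at the same spacing. Windows of 250 bases before RefSeq start sites (build GRCm38.p6) were found for 8 of the 10 members. Tap2 and Nlrc5 had no entry. In B2m, H2-K1, H2-D1 and H2-M3 the letters TGACG (the core bound by CREB/ATF proteins) were followed, after exactly 20 bases, by an inverted NF-Y box. The stretches lie on the plus strand at chr2:122147609-122147638 for B2m, chr17:35262993-35263022 for H2-D1 and chr17:37270188-37270217 for H2-M3, and on the minus strand at chr17:34000359-34000388 for H2-K1. The H2-D1 stretch lies wholly within an annotated GENCODE exon, upstream of a RefSeq start that matches no GENCODE transcript start. Capitals mark the 2 motifs.
B2m: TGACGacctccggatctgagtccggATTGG
H2-K1: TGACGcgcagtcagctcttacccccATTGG
H2-D1: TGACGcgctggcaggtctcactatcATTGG
H2-M3: TGACGcttctccaattcccattctaATTGG
Of the 20 bases between the motifs, H2-K1 and H2-D1 shared 13 and B2m and H2-K1 shared 3. The pair with this spacing, searched on both strands, occurred in 30 of 32851 windows (0.0913%) and in 26 of 27025 genes. None of the 18 other class I heavy chain genes with a window held it with these exact letters. The spacing was noticed after the windows had been searched for the single motifs, so these shares are a description. Among the members with a window but without the pair, the windows of Tap1, Tapbp and Erap1 began inside annotated exons. That of H2-T23 had 96 bases before its first exon base. Other spacings of the pair and other letters were not searched, so a missing match does not show that the element is absent.

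The wider windows of 3 members show what else surrounds the pair. Only bases outside annotated exons are printed. Capitals mark matches, on either strand, to GAAANNGAA (the core of an interferon response element), GGGNNTTCC (an NF-kB type letter pattern), TTCNNNGAA (the GAS pattern), CCAAT and TGACG. No match overlapped another in these stretches. The windows are chr17:34000348-34000597 on the minus strand for H2-K1, chr2:122147437-122147685 on the plus strand for B2m and chr17:37269984-37270219 on the plus strand for H2-M3.
H2-K1: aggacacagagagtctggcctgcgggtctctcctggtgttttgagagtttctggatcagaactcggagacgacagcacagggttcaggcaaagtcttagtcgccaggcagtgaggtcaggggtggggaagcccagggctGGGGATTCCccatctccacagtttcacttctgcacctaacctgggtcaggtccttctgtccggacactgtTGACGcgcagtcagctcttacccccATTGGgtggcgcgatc
B2m: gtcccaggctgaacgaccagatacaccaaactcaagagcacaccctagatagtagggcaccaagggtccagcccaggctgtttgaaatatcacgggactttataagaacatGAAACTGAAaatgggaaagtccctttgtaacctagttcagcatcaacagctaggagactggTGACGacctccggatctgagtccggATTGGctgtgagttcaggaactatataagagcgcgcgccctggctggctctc
H2-M3: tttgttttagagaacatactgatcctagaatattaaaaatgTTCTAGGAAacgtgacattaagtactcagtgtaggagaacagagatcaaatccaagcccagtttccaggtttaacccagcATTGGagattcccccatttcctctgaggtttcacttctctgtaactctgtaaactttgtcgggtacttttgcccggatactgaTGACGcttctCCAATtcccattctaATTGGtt
In H2-K1 and in H2-D1, the GGGNNTTCC match began 70 bases before the TGACG of the pair. Matches to GAAANNGAA lay 139 bases before the start of B2m, 123 before that of H2-T23 and 9 before that of Erap1. Over all windows, GAAANNGAA was found in 7.13%, GGGNNTTCC in 4.98%, TTCNNNGAA in 7.02%, TGACG in 17.8% and CCAAT in 33.8%. A match of letters is not a measured binding site. Other letters or orders of letters were not searched, such as tttcacttc, which is printed above in H2-K1 and H2-M3. A window without a match to GAAANNGAA is therefore not shown to lack an interferon response element.

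**Figure D1:**
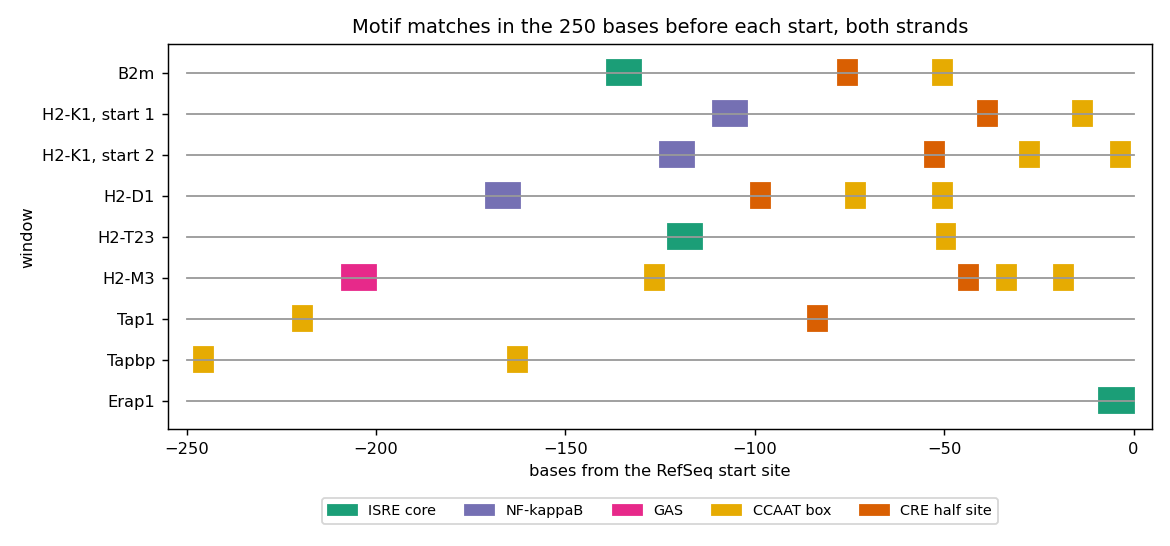
Positions of motif matches in the 250 bases before the RefSeq start sites of 8 members (H2-K1 has 2 starts). The x axis is the distance from the start in bases, and coloured boxes are matches on either strand. In B2m, H2-K1, H2-D1 and H2-M3 an orange box is followed by a yellow box that starts 25 bases later.

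Total counts ran from 18230924 to 22882972 per library, with at least 329 counts for each member in each library. Levels are given as CPM, counts scaled to library depth after TMM adjustment. In these units 9 macrophage markers summed to between 9044 and 14541 in every library, while the T and NK cell markers summed to at most 24.8. The defining neutrophil genes S100a9, Ly6g and Retnlg and the eosinophil gene Epx had no count in any library, but all neutrophil markers together summed to 2.58 to 12.1 and the eosinophil markers to 5.75 to 19.0. Mesothelial and fibroblast markers summed to 287 to 533. B cell markers summed to 107 to 116 in M0 and 61.2 to 67.2 in M0+ONX, to 77.4 to 89.7 in M1 and 39.6 to 44.4 in M1+ONX, and to 114 to 122 in M2 and 60.8 to 67.8 in M2+ONX. In bulk RNA, fewer cells of a type and less RNA per cell cannot be told apart. M1 replicate 2 stood apart, with a mitochondrial share of 0.300%, where the other M1 libraries had 1.07% to 1.14%. It had the highest H2-K1, H2-D1 and H2-T23 and the lowest Erap1 of its group. Results of members that change without it are given both ways, and other single genes were not examined without it. TMM factors were 0.793 to 0.849 in M1, 0.870 to 0.884 in M1+ONX and 1.04 to 1.14 in the other groups, so scaling weighs on comparisons that involve M1.

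All 10 genes rose in M1 against M0, but by very different sizes. Tap1 rose 31.4-fold and Nlrc5 21.0-fold, while B2m rose 2.37-fold and H2-D1 1.45-fold. Of all genes tested, 34.6% were called higher and 34.2% lower in this comparison (edgeR quasi-likelihood test, Benjamini-Hochberg adjusted p under 0.05). The median log2 change was 1.83 over the members and -0.02 over all genes.

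**Figure D2:**
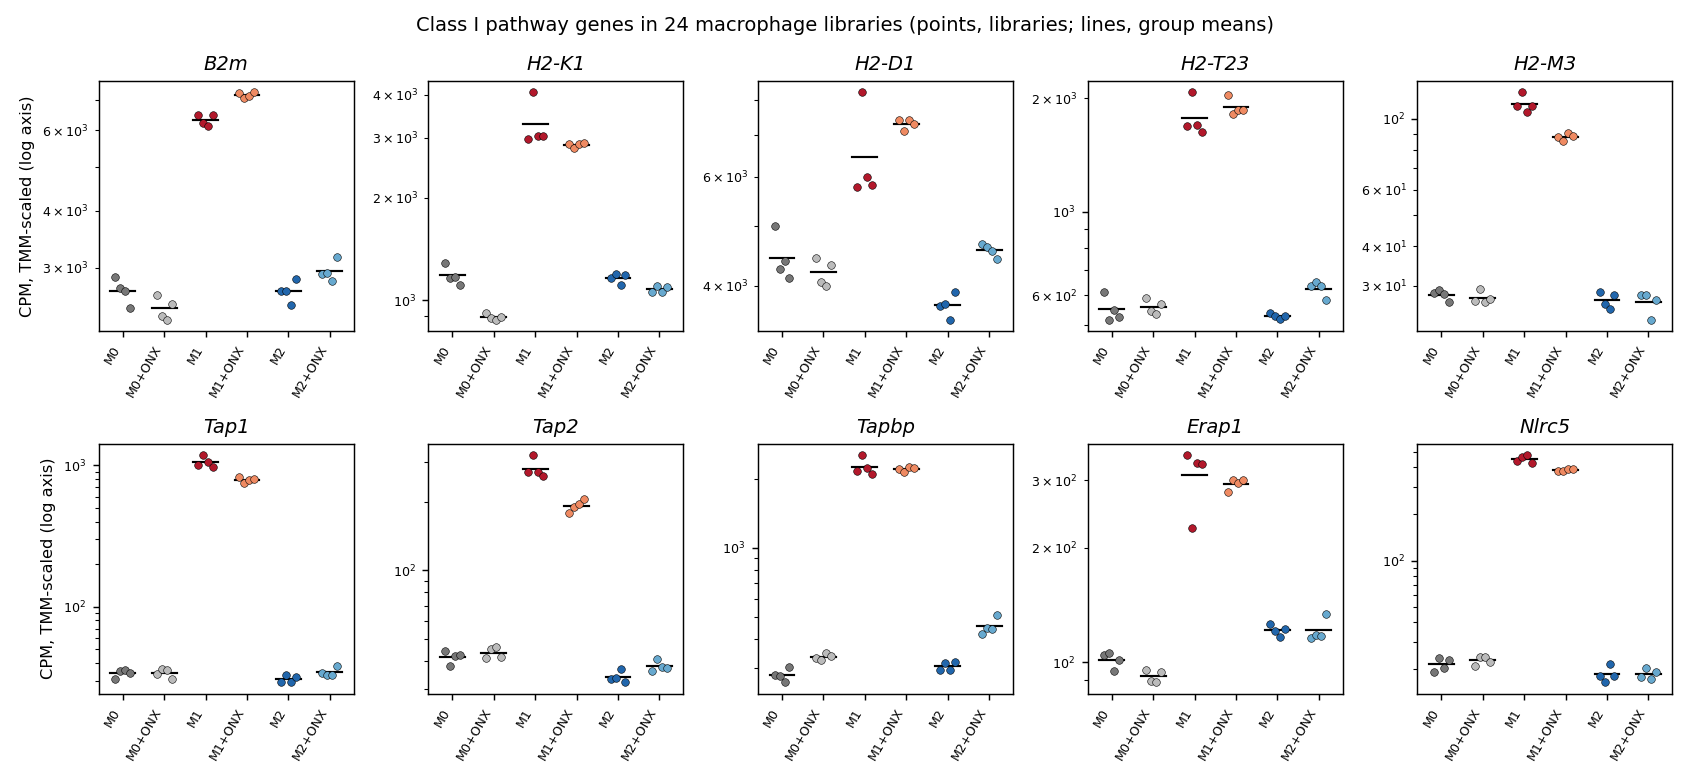
CPM of the 10 genes in each of 24 libraries (log axis, with a scale of its own in each panel). Points are libraries, 4 a group, and lines are group means. Both M1 groups lie above the other 4 groups in every panel, and for Tap2 the M1+ONX libraries (178 to 205) lie below all M1 libraries (258 to 320).

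The transporter subunits rose by unequal amounts. Tap1 (chr17:34187553-34197225, plus strand) was at 30.6, 34.9, 35.4 and 34.1 CPM in M0 and at 1016, 1184, 1064 and 982 CPM in M1. Its log2 change was 4.97 (SE 0.08, adjusted p = 1.51e-27). Tap2 (chr17:34203527-34216321, plus strand), the partner subunit of the same heterodimer, was at 44.4, 38.1, 41.9 and 42.7 CPM in M0 and at 269, 320, 269 and 258 CPM in M1. No M1 library overlapped M0 for either gene, and the log2 change of Tap2 was 2.74 (SE 0.07, adjusted p = 7.1e-23). Nlrc5 (chr8:94434356-94527272, plus strand), the class I transactivator, was at 19.2, 23.5, 20.4 and 22.8 CPM in M0 and at 437, 464, 478 and 427 CPM in M1. Its log2 change was 4.39 (SE 0.08, adjusted p = 2.24e-26).

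Tapasin and the trimming peptidase also rose. Tapbp (chr17:33915899-33929292, plus strand) was at 280, 276, 260 and 302 CPM in M0 and at 2156, 2529, 2233 and 2100 CPM in M1, a log2 change of 3.01 (SE 0.07, adjusted p = 2.88e-24). Erap1 (chr13:74639568-74693201, plus strand) was at 105, 106, 94.7 and 101 CPM in M0 and at 349, 225, 334 and 332 CPM in M1. The low value is that of replicate 2, and the log2 change was 1.61 with it and 1.74 without it. Exons of the antisense gene Gm19412 cover 24.9% of the Tapbp exon bases, but Gm19412 itself had at most 3 counts in any library. Exons of Zbtb22, on the same strand as Tapbp, cover 4.11% of its exon bases. Zbtb22 stood at 44.2 CPM in M0 and 30.4 CPM in M1. Exons of Cast, on the other strand, cover 11.5% of the Erap1 exon bases, and Cast stood at 154 CPM in M0 and 157 CPM in M1. Psmb9 exons cover 3.87% of the exon bases of Tap1, and Gm15821 exons cover 14.1% of those of Tap2 but Gm15821 stood at only 1.14 CPM in M1. Whether the counting used strand is not stated, so reads in these stretches cannot be assigned.

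The surface molecules were already abundant in M0 and rose less. B2m (chr2:122147686-122153083, plus strand), the shared light chain, was at 2866, 2705, 2666 and 2453 CPM in M0 and at 6481, 6228, 6143 and 6480 CPM in M1 (log2 change 1.24, SE 0.06). H2-K1 (chr17:33996017-34000347, minus strand) was at 1288, 1163, 1175 and 1110 CPM in M0 and at 2978, 4071, 3040 and 3034 CPM in M1 (log2 change 1.47, SE 0.07, and 1.35 without M1 replicate 2). H2-D1 (chr17:35262730-35267499, plus strand) was at 5002, 4252, 4383 and 4120 CPM in M0 and at 5779, 8219, 5997 and 5821 CPM in M1. The 4 M1 values of H2-D1 lie above those of M0, but close to them apart from replicate 2. Its log2 change of 0.54 (SE 0.08, adjusted p = 1.26e-06) was 0.40 without M1 replicate 2. With plain library sizes in place of TMM it was 0.12, with an adjusted p of 0.107, so its call depends on the scaling. Plain library sizes moved the median of all genes from -0.02 to -0.43, and the other 9 members were still called higher.

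The log2 changes of the nonclassical heavy chains were above those of H2-K1 and H2-D1, a difference that was not tested. H2-T23 (chr17:36029773-36032855, minus strand) encodes Qa-1, the ligand of the CD94/NKG2 receptors of NK cells. It was at 614, 518, 548 and 528 CPM in M0 and at 1690, 2070, 1697 and 1627 CPM in M1 (log2 change 1.68, SE 0.07). H2-M3 (chr17:37270220-37274484, plus strand), which presents N-formylated peptides, was at 28.5, 29.1, 28.3 and 26.7 CPM in M0 and at 110, 121, 105 and 110 CPM in M1 (log2 change 1.98, SE 0.06). Up to 3.59% of the 100-base stretches of H2-K1, H2-D1 and H2-T23 transcripts occur in another gene, so some reads of these genes could have been split among copies.

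The unequal rises narrowed the range of levels among the members. Per kb of exon, M0 levels fell in the order B2m (3107 CPM per kb), H2-D1 (1721), H2-K1 (403), H2-T23 (191), Tapbp (77.1), H2-M3 (19.6), Erap1 (14.0), Tap2 (11.05), Tap1 (6.16) and Nlrc5 (2.53). No neighbours in this order overlapped between their 4 M0 libraries. The highest level was 1230 times the lowest in M0 and 173 times in M1. In M1, Tap1 moved up to 194 CPM per kb and Nlrc5 to 53.2 CPM per kb, above Erap1 at 42.6 CPM per kb. Tapbp at 621 and H2-T23 at 613 CPM per kb overlapped in M1, as did H2-M3 at 77.5 and Tap2 at 73.9 CPM per kb. With the longest transcript in place of all exons, the M0 order was the same, and in M1 Tap2 and H2-M3 changed places. The 10 genes together took 0.967% to 1.11% of all counts in M0 and 1.76% to 2.02% in M1.

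Other genes of the pathway were taken from lists, and their sizes differed by role. In M1 against M0, 34.6% of all genes were called higher and 34.2% lower. All 5 genes of the immunoproteasome and PA28 list were called higher in M1, with Psmb9 at a log2 change of 3.67 (SE 0.10), Psmb10 at 3.09 (SE 0.09) and Psmb8 at 2.84 (SE 0.08). Psmb9 and Psmb8 lie beside Tap1 and Tap2 in the MHC. Of 26 other class I heavy chains, 23 matched a row, 10 could be tested and all 10 were called higher. H2-M2 went from 8.70 to 339 CPM (log2 change 5.28), and H2-Q6 from 6.90 to 190 CPM (log2 change 4.79). H2-Q6 and H2-Q7, which rose by 4.15, are near-identical copies, so the split of reads between them is uncertain. H2-Q10 went from at most 2 counts in an M0 library to 15 to 26 counts in M1 libraries. Several of these genes passed the filter on low counts only through their M1 levels, so their count is a description.

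Regulators of class I genes and accessory factors were less uniform. Of 17 transcription factors, 14 were called higher and 2 lower in M1, where 34.6% of all genes were called higher and 34.2% lower. Irf1 rose from 23.4 to 896 CPM (log2 change 5.26, SE 0.08). Stat2 rose by 4.58 and Ciita, the class II counterpart of Nlrc5, by 4.43. Rfx5, a DNA-binding subunit with which NLRC5 acts, rose by 1.78 (SE 0.10). Of 10 chaperones and translocon subunits, 5 were called higher and 4 lower, which those shares of all genes do not set apart. Tapbpl, which encodes TAPBPR, a peptide editor related to tapasin, rose from 19.1 to 191 CPM (log2 change 3.32, SE 0.08). The next largest of the list was Prkcsh at 0.66. Among 7 peptidases, 5 were called higher and none lower, and Lap3, leucine aminopeptidase, rose by 3.08 (SE 0.07) while Blmh rose by 0.43.

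Changes with IL4 were small in the class I genes. In M2 against M0, 1 member was called higher and 3 lower, beside 18.7% higher and 17.5% lower among all genes. Erap1 was at 126, 121, 117 and 122 CPM in M2, above all M0 libraries (log2 change 0.26, SE 0.09, adjusted p = 0.0191). H2-D1 was at 3710, 3735, 3525 and 3913 CPM in M2, below all M0 libraries (log2 change -0.25, SE 0.08, adjusted p = 0.0141). Tap2 was at 33.4, 33.8, 37.1 and 32.3 CPM in M2, also below all M0 libraries (log2 change -0.29, SE 0.07, adjusted p = 0.00163). Nlrc5 was at 18.07, 16.4, 21.5 and 18.04 CPM in M2, which overlapped M0 (log2 change -0.21, adjusted p = 0.0288). The call of Nlrc5 was lost without M0 replicate 2 or 4 or M2 replicate 1, 2 or 4, with log2 changes of -0.17 to -0.20. The call of H2-D1 was lost without M0 replicate 1 (-0.19), and that of Erap1 without M0 replicate 3 (0.23) or M2 replicate 1 (0.24). With plain library sizes the call of Erap1 was lost as well (0.21), and Tap1 was called lower (-0.18). Tapbp (0.13, adjusted p = 0.112) was called higher without M1 replicate 2 (adjusted p = 0.0358). Against M2, all 10 members were called higher in M1, where 32.2% of all genes were, with log2 changes from 0.79 for H2-D1 to 5.11 for Tap1.

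Of the other genes of the pathway, Psmb10, the MECL-1 subunit of the immunoproteasome, went from 62.9 to 213 CPM (log2 change 1.76, SE 0.08, adjusted p = 2.29e-15). Psmb8 (-0.07, adjusted p = 0.484) and Psmb9 (0.13, adjusted p = 0.334) did not pass the test. Of the 17 transcription factors, 8 were called higher and 3 lower, with Irf1 at a log2 change of 0.46 and Rfx5 at -0.44. Of the 10 chaperones and translocon subunits, 6 were called higher and none lower, the largest being Sec61a1 at 0.45. Of the 10 other heavy chains tested, 2 were called higher, H2-Q5 (0.67) and H2-Q6 (0.49), and 1 lower, H2-T24 (-0.17). Several of these heavy chains passed the filter on low counts only through their M1 levels. Among all genes 18.7% were called higher and 17.5% lower in M2 against M0.

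**Figure D3:**
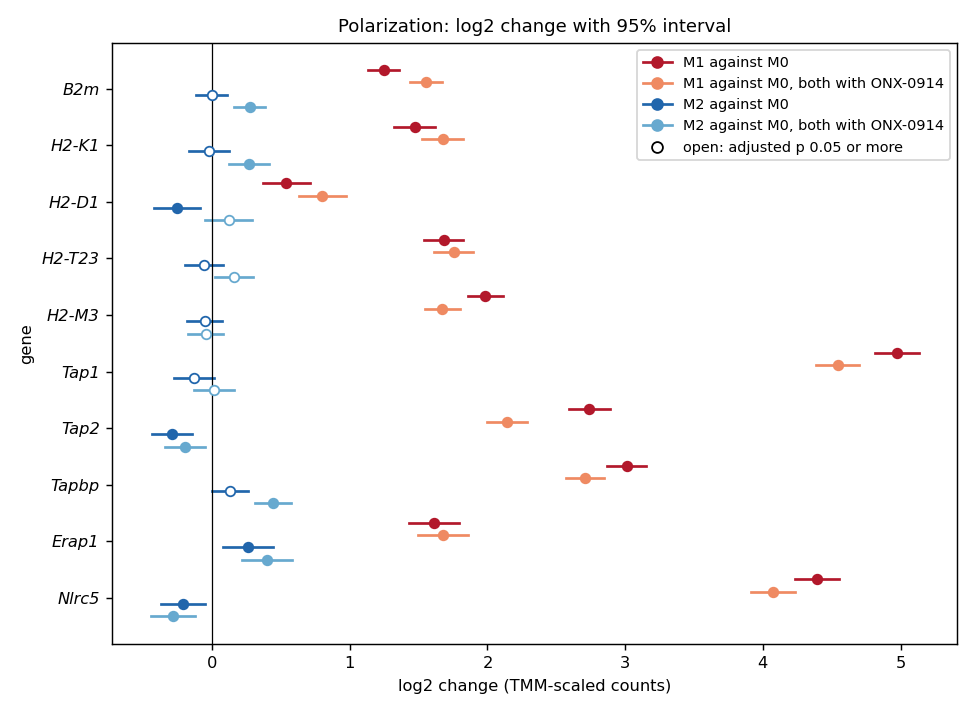
Log2 change of each member in M1 or M2 against M0, without and with ONX-0914 in both groups. Points are fitted changes from 24 libraries, lines are 95% intervals, and open points did not pass an adjusted p of 0.05. Without ONX-0914 the M1 changes run from 0.54 for H2-D1 to 4.97 for Tap1 and the M2 changes from -0.29 to 0.26, and with it from 0.80 to 4.54 and from -0.29 to 0.44.

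Changes with ONX-0914 were small, and heavy chains went both ways. In M1, Tap1, Tap2, H2-M3, Nlrc5 and H2-K1 were called lower and B2m higher. That is 5 of 10 lower and 1 of 10 higher, beside 27.7% lower and 16.6% higher among all genes. With plain library sizes the split was 3 lower and 3 higher, with H2-K1 and Nlrc5 lost and H2-D1 (0.28, adjusted p = 0.00189) and H2-T23 (0.19, adjusted p = 0.00628) gained. Fitted on M1 and M1+ONX only, it was 3 lower and 1 higher. The median log2 change was -0.14 over the members and -0.08 over all genes. M1+ONX levels of Tap2 were 178, 189, 196 and 205 CPM, all below the M1 libraries (log2 change -0.54, SE 0.07, adjusted p = 1.21e-07). Tap1 was at 830, 755, 790 and 802 CPM, also below all M1 libraries (log2 change -0.42, SE 0.06, adjusted p = 4.25e-06). H2-M3 was at 87.9, 85.2, 90.3 and 88.4 CPM, again without overlap (log2 change -0.34, SE 0.06, adjusted p = 1.48e-05). Even so, Tap1 in M1+ONX remained at 794 CPM, against 34.0 CPM in M0+ONX.

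The other members moved less in M1. Nlrc5 was at 378, 375, 389 and 387 CPM in M1+ONX, below all M1 libraries (log2 change -0.24, SE 0.07, adjusted p = 0.00361). With plain library sizes its change was -0.15 (adjusted p = 0.0778), and fitted on M1 and M1+ONX only -0.15 (adjusted p = 0.0585). B2m was at 7252, 7054, 7146 and 7271 CPM in M1+ONX, above all M1 libraries (log2 change 0.18, SE 0.05, adjusted p = 0.00795). H2-K1 was at 2882, 2794, 2865 and 2896 CPM in M1+ONX, below all M1 libraries (log2 change -0.20, adjusted p = 0.0217). Without M1 replicate 2 the change was -0.08 (adjusted p = 0.13). The call of H2-K1 was also lost without M1+ONX replicate 2 (-0.19, adjusted p = 0.0547) with plain library sizes (-0.10, adjusted p = 0.163) and when fitted on M1 and M1+ONX only (-0.10, adjusted p = 0.404). H2-D1 was at 7415, 7119, 7425 and 7313 CPM, inside the M1 range through replicate 2. Its log2 change of 0.18 (adjusted p = 0.07) was 0.32 without that library (adjusted p = 3.18e-06). H2-T23 was at 2034, 1816, 1857 and 1858 CPM (log2 change 0.10, adjusted p = 0.252, and 0.18 with an adjusted p of 0.0046 without M1 replicate 2). Erap1 went from -0.08 (adjusted p = 0.501) to -0.20 (adjusted p = 0.000976) without M1 replicate 2. Tapbp was at 2205, 2135, 2240 and 2224 CPM, inside the M1 range, and did not pass the test (log2 change -0.03, 95% interval -0.16 to 0.09).

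Genes of the wider pathway that fell in M1 with ONX-0914 included both proteasome and regulator genes. All 5 genes of the immunoproteasome and PA28 list were called lower, with Psmb9 at -0.63 (SE 0.09), Psmb8 at -0.59 (SE 0.07) and Psmb10 at -0.47 (SE 0.08). The highest M1 library was at 286 CPM for Psmb9 (median 210), 438 CPM for Psmb8 (median 354) and 665 CPM for Psmb10 (median 511). How these changes depend on M1 replicate 2 was not examined. Of 10 other heavy chains tested, 6 were called lower and none higher. Among all genes 27.7% were called lower and 16.6% higher with ONX-0914 in M1. H2-Q6 went from 190 to 93.1 CPM (log2 change -1.03, SE 0.09), and H2-T24 from 278 to 181 CPM (log2 change -0.62, SE 0.06). Of 17 transcription factors, 8 were called lower and 3 higher. Rfx5 was at 13.3 to 14.0 CPM in M1+ONX and 19.7 to 21.5 CPM in M1 (log2 change -0.57, SE 0.10). Ciita fell by 1.03 on the log2 scale and Nfkb1 by 0.41. Irf1 (-0.15, adjusted p = 0.0809) did not pass the test. Tapbpl fell from 191 to 129 CPM (log2 change -0.56, SE 0.07) and Lap3 from 277 to 191 CPM (log2 change -0.54, SE 0.06), while Prkcsh rose by 0.47. The summed macrophage markers were lower in M1+ONX (9044 to 9500 CPM) than in M1 (11552 to 14176 CPM). Their part and that of the B cell markers in these results were not tested.

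In resting cells, 2 members changed. H2-K1 was at 918, 891, 879 and 892 CPM in M0+ONX, below all M0 libraries (log2 change -0.40, SE 0.07, adjusted p = 0.000108). Tapbp was at 332, 326, 350 and 338 CPM in M0+ONX, above all M0 libraries (log2 change 0.27, SE 0.06, adjusted p = 0.00274). Among all genes 9.54% were called higher and 11.4% lower, so 45.5% of calls were higher, against 54.2% with plain library sizes. Tap1 was at 33.2, 36.2, 35.9 and 30.9 CPM in M0+ONX (log2 change 0.01, 95% interval -0.13 to 0.16), and Nlrc5 at 21.0, 23.9, 23.8 and 22.3 CPM (log2 change 0.08, 95% interval -0.08 to 0.24). B2m, at 2617, 2352, 2312 and 2499 CPM, had a log2 change of -0.13 (adjusted p = 0.0973). It was called lower without M0 replicate 4 (adjusted p = 0.0335) or M1 replicate 2 (adjusted p = 0.0372). Erap1, with a log2 change of -0.14 (adjusted p = 0.259), was called lower without M1 replicate 2 (adjusted p = 0.0202). Irf1 fell by 0.36 on the log2 scale, Psmb8 by 0.32 and Psmb10 by 0.32, whereas Psmb9 (-0.21) and Rfx5 (0.03) did not pass the test. Of 10 other heavy chains, 6 were called lower and none higher, with H2-M2 from 8.70 to 3.69 CPM (log2 change -1.24, SE 0.27). Several of the 10 passed the filter on low counts only through their M1 levels, so this count is a description. H2-M2 stood at 339 CPM in M1 and at 429 CPM in M1+ONX.

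In M2, 4 members were called higher and none lower, beside 17.6% higher and 18.8% lower among all genes. At an unadjusted p under 0.05 the counts were 6 higher and 0 lower, and limma voom called 5 higher and 1 lower. Tapbp was at 422, 449, 442 and 512 CPM in M2+ONX against 293, 317, 294 and 320 CPM in M2 (log2 change 0.58, SE 0.06, adjusted p = 2.64e-08). H2-D1 was at 4679, 4626, 4550 and 4422 CPM in M2+ONX, above all M2 libraries (log2 change 0.30, SE 0.08, adjusted p = 0.00477). H2-T23 was at 634, 650, 637 and 582 CPM against 538, 530, 521 and 529 CPM in M2 (log2 change 0.24, SE 0.07, adjusted p = 0.00495). B2m was at 2907, 2929, 2810 and 3162 CPM and overlapped M2 (log2 change 0.15, adjusted p = 0.0355). Its call was lost without any 1 of M2 replicates 1, 2 and 3 or M2+ONX replicates 1, 2 and 4, with log2 changes of 0.11 to 0.16. It was also lost with DESeq2's size factors (0.11, adjusted p = 0.111) and with no count filter (0.15, adjusted p = 0.0735). Tap1 (0.15, adjusted p = 0.0869) and Tap2 (0.16, adjusted p = 0.0861) did not pass the test, but were called higher without M1 replicate 2, whose spread enters the shared fit (adjusted p = 0.0365 and 0.0288). Tap1 was also called without M2 replicate 2 (0.19) and Tap2 without M2 replicate 3 (0.20). H2-K1 (-0.11, adjusted p = 0.22) was called lower without M1 replicate 2 (adjusted p = 0.0182). Psmb8 (-0.25), Psmb9 (-0.30), Psmb10 (-0.29) and Irf1 (-0.26) were called lower in M2+ONX, and Rfx5 (0.08) did not pass the test. Of 10 other heavy chains, several of which passed the filter only through their M1 levels, 1 was called higher and 2 lower. Macrophage markers summed to 12446 to 13741 CPM in M2 and 10040 to 11285 CPM in M2+ONX, and to 12523 to 14541 CPM in M0 and 10471 to 11606 CPM in M0+ONX. Their part in the results in M0 and M2, and that of the B cell markers, was not tested.

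**Figure D4:**
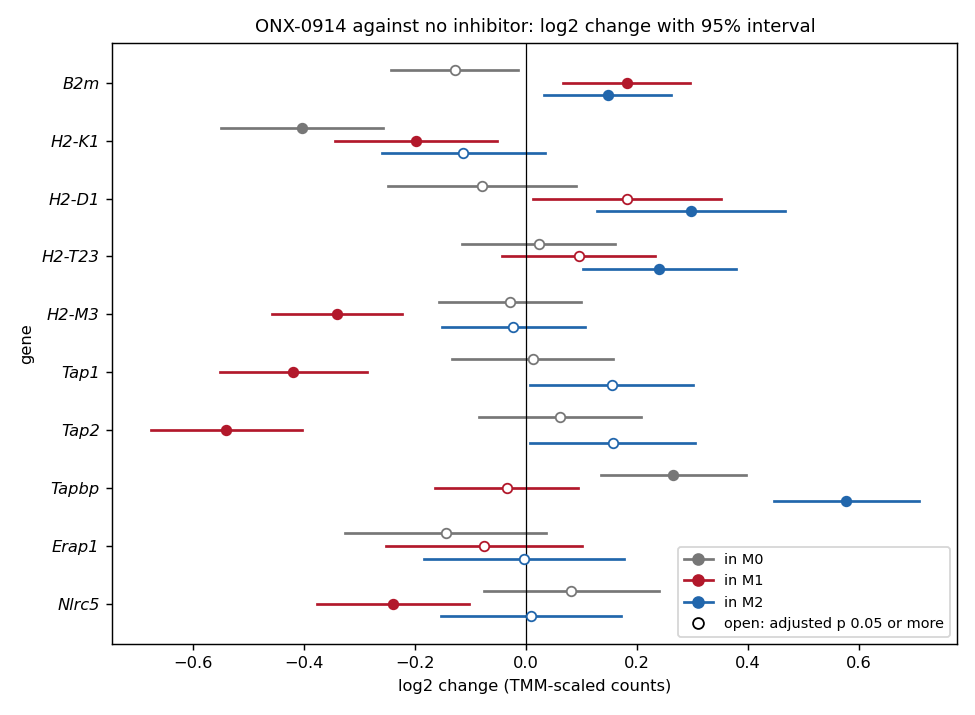
Log2 change of each member with ONX-0914 in M0, M1 and M2. Points are fitted changes, lines are 95% intervals, and open points did not pass an adjusted p of 0.05. Tap1, Tap2, H2-M3 and Nlrc5 are below 0 in M1, and Tapbp is above 0 in M0 and M2.

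The change with ONX-0914 differed between states for several members. Between M1 and M0 the difference of log2 changes was negative for Tap2 (-0.60, adjusted p = 3.75e-05), Tap1 (-0.43, adjusted p = 0.00142), Nlrc5 (-0.32, adjusted p = 0.0221), H2-M3 (-0.31, adjusted p = 0.00764) and Tapbp (-0.30, adjusted p = 0.0154), and positive for B2m (0.31, adjusted p = 0.00473). Among all genes 12.4% had a lower and 6.90% a higher change in M1. The call of Nlrc5 was lost without any 1 of M0 replicates 1 and 3 or M0+ONX replicates 2 and 3, with differences of -0.27 to -0.30, and with plain library sizes (-0.26). That of H2-M3 was lost with no count filter (-0.28, adjusted p = 0.0685). Fitted on the 4 groups involved only, 3 of these 6 calls were left, those of B2m, Tap1 and Tap2. Without M1 replicate 2, H2-K1 (0.33) and H2-D1 (0.40) were also called. Between M1 and M2, the differences of Tap2 (-0.70), Tapbp (-0.61), Tap1 (-0.57) and H2-M3 (-0.32) were negative and called, where 9.68% of all genes were called lower. That of H2-M3 was lost with plain library sizes (-0.22), with no count filter (-0.30, adjusted p = 0.0639) and when fitted on the 4 groups involved only (-0.21). It was kept in each fit that left out 1 library, and without M1 replicate 2 that of Erap1 (-0.20, adjusted p = 0.0404) was called. Without M2 replicate 3 that of Nlrc5 was called (-0.33, adjusted p = 0.022). Between M2 and M0, Tapbp (0.31), H2-D1 (0.38) and B2m (0.28) were called higher, where 3.44% of all genes were. The call of H2-D1 (adjusted p = 0.047) was lost in 18 of 24 fits that left out 1 library, that of Tapbp in 7 and that of B2m in 6. None of these 3 was called with DESeq2's size factors in edgeR (5 were higher at an unadjusted p under 0.05), and leaving out single libraries gave 0 to 5 calls. There were 0 without M0 replicate 1, M0+ONX replicate 2, M2 replicate 3 or M2+ONX replicate 4 (4 to 5 at an unadjusted p), and 5 without M1 replicate 2, which added H2-K1 (0.29) and H2-T23 (0.22). Among the regulators, Rfx5 differed between M1 and M0 (-0.60, adjusted p = 0.00463), while Irf1 (0.21, adjusted p = 0.165) did not pass the test.

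Ratios of 2 genes within a library do not depend on how libraries are scaled, and they separated the heavy chains. Per kb of exon, H2-K1 was at 0.234 ± 0.006 of H2-D1 in M0 and at 0.187 ± 0.007 in M0+ONX (SD over 4 libraries). In M1 the ratio was 0.447 ± 0.010, with M1 replicate 2 inside the narrow range of 0.435 to 0.457. In M1+ONX it was 0.343 ± 0.004. In M2 it was 0.275 ± 0.006, and in M2+ONX 0.207 ± 0.008. The ratio was lower with ONX-0914 in all 3 states with no overlap between libraries, by 0.33, 0.38 and 0.41 on the log2 scale in M0, M1 and M2. Each difference had the smallest p that an exact two-sided permutation test of 4 against 4 libraries allows (0.0286, and 0.0477 adjusted over the 25 ratio comparisons made). The ratio was also higher in M1 than in M0 (0.93 on the log2 scale) and in M2 than in M0 (0.23), without overlap. The ratios were chosen after the levels had been seen.

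The ratio of tapasin to the transporter was higher with ONX-0914. Per kb of exon, Tapbp was at 4.48 ± 0.29 times Tap1 plus Tap2 in M0, 2.32 ± 0.01 in M1 and 5.75 ± 0.33 in M2. With ONX-0914 it was at 5.23 ± 0.32, 3.10 ± 0.05 and 7.69 ± 0.50, higher in each state without overlap (log2 differences 0.22, 0.42 and 0.42, exact permutation p = 0.0286 each, adjusted p = 0.0477). Tap1 plus Tap2 stood at 0.0748 ± 0.0062 of H2-K1 plus H2-D1 in M1 and at 0.0514 ± 0.0009 in M1+ONX, without overlap (log2 difference -0.54, exact permutation p = 0.0286, adjusted p = 0.0477). In M0 (0.00814 ± 0.00066) and M0+ONX (0.00920 ± 0.00094) the same ratio overlapped. The ratio of Tap1 to Tap2 was 0.561 ± 0.066 in M0 and 2.63 ± 0.07 in M1, and overlapped between M1 and M1+ONX (2.86 ± 0.24, exact permutation p = 0.0571, adjusted p = 0.0892).

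**Figure D5:**
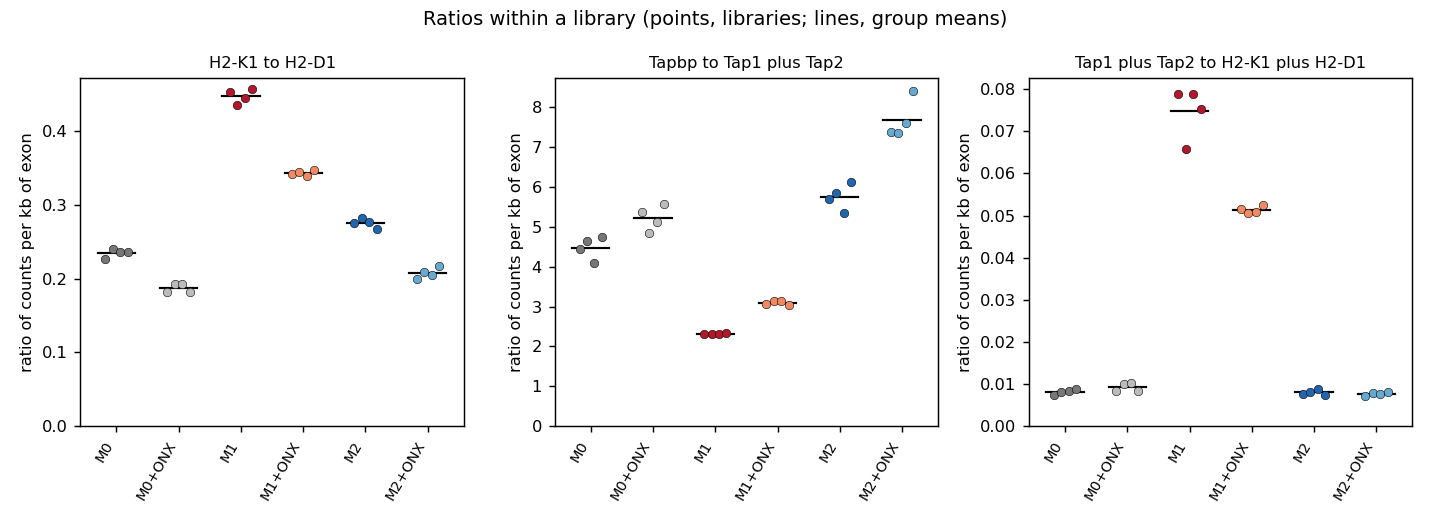
Ratios of counts per kb of exon within each library, for H2-K1 to H2-D1, Tapbp to Tap1 plus Tap2, and Tap1 plus Tap2 to H2-K1 plus H2-D1. Points are libraries, lines are group means, and each axis starts at 0. With ONX-0914 the first ratio is lower and the second higher in M0, M1 and M2, with no overlap.

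Under ONX-0914, M1 cells still held all 10 members above M0 cells. All 10 were called higher in M1+ONX against M0+ONX, beside 34.4% of all genes, with log2 changes from 0.80 for H2-D1 to 4.54 for Tap1. H2-D1 was at 7119 CPM or more in each M1+ONX library and at 4438 CPM or less in each M0+ONX library. In M2+ONX against M0+ONX, 4 members were called higher and 2 lower, beside 22.1% and 18.6% of all genes. Tapbp (0.44), Erap1 (0.40), B2m (0.27) and H2-K1 (0.27) were higher, and Nlrc5 (-0.29) and Tap2 (-0.20) lower. The call of Tap2 was lost without any 1 of M0+ONX replicates 2 and 3 or M2+ONX replicates 1, 3 and 4 (-0.17 to -0.19). H2-T23 (0.16) was called higher without any 1 of M0 replicate 1, M0+ONX replicate 1, M1 replicates 2 and 4 or M2+ONX replicate 4 (0.16 to 0.19), and H2-D1 without M1 replicate 2 (0.12, adjusted p = 0.0299).

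The order of the 6 groups differed among the members outside M1. Both M1 groups were above the other 4 groups for each gene, with no overlap. How many of all genes were separated in this way was not counted, so this is a description. In M1 against M0, 34.6% of all genes were called higher. M1+ONX was the highest group for B2m, H2-D1 and H2-T23, and M1 for the other 7. M1 and M1+ONX overlapped for H2-D1, H2-T23, Tapbp and Erap1. M2+ONX came next after the M1 groups for B2m, H2-D1, H2-T23, Tap1 and Tapbp, and only for Tapbp did none of its libraries overlap the next group. Among the 4 groups other than M1 and M1+ONX, every pair of neighbours in the order overlapped for B2m, H2-T23, H2-M3, Tap1, Tap2 and Nlrc5.

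The genes whose profile was most like that of the members were ranked by Pearson's r over 24 libraries between their log2 CPM and the mean standardized level of the members. Of 9410 genes ranked, Isg15 (r = 0.9979), a ubiquitin-like protein, Gbp2 (0.9979), a guanylate-binding GTPase, Daxx (0.9974), Pla2g16 (0.9972) and Ifi35 (0.997) were the closest. The libraries share depth and group, and both M1 groups lie far from the others in all 5 profiles. Each member's own r with the mean was 0.9305 (H2-D1) or more over 24 libraries, and fell to between -0.09 (Nlrc5) and 0.82 (H2-D1) over the 16 libraries of M0, M0+ONX, M2 and M2+ONX. A member is itself part of that mean, which raises its r, so these values cannot be set against those of the genes ranked. Gbp2 (0.63), Pla2g16 (0.50), Ifi35 (0.42) and Daxx (0.28) were called higher with ONX-0914 in M2, and Isg15 (0.44, adjusted p = 0.0853) did not pass the test. In M1 only Pla2g16 of the 5 was called, lower (-0.26, adjusted p = 0.00681).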

How the data were processed

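The deposited file holds raw counts per Ensembl gene. Per the submitters' processing notes the build was mm10 and the tools named were FastQC 0.11.9, cutadapt 2.8, Bowtie2 2.2.5 and Picard. The tool, strand setting and annotation used for counting are not stated there or in the labels. Symbols and positions came from GENCODE M21 (GRCm38), which matched 54409 of 54532 features, and the other 123 held 0.0282% of counts. Testing used edgeR 4.0.16 under R 4.3.3: filterByExpr kept 14692 genes, TMM scaled the libraries, and the quasi-likelihood fit took all 24 libraries with a mean for each of 6 groups (18 residual degrees of freedom). All p-values were adjusted over all genes tested by Benjamini-Hochberg and called under 0.05. Library totals of 18230924 to 22882972 counts set the counting precision. The p-values measure the spread between pooled libraries. limma 3.58.1 (voom) and DESeq2 1.42.0 were alternatives, beside DESeq2 size factors, plain library sizes, other count filters, a replicate block, the libraries of each comparison only and leaving out each library. The ratios per kb and the plain sizes were chosen after seeing the data. Named genes are the 10 members, Psmb8, Psmb9, Psmb10, Irf1, Rfx5 and another gene that is not reported here, up to 4 called genes per list and comparison with the largest change, and the 5 genes most like the members. The members and lists were chosen with earlier results of these data known.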

Additional observations from a re-analysis of the deposited data

Results flagged for a closer look

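In 60 sets of 4 libraries (10 members in 6 groups), 5 had a library that stood apart by Dixon's test, and chance flags about 1 in 20 sets. In 4 of them it was M1 replicate 2, whose RNA profile stood apart as a whole: H2-K1 at 4071 CPM (next 3040), H2-D1 at 8219 CPM (next 5997), H2-T23 at 2070 CPM (next 1697) and Erap1 at 225 CPM (next 332). The other was Erap1 in M2+ONX replicate 4, at 134 CPM (next 118).

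The change with ONX-0914 differed between states, by the interaction terms of the edgeR fit, in 13 of 30 member comparisons. The difference between M1 and M2 is fixed by the other differences, so these comparisons are not independent. Between M1 and M0 the log2 differences were 0.31 for B2m, -0.31 for H2-M3, -0.43 for Tap1, -0.60 for Tap2, -0.30 for Tapbp and -0.32 for Nlrc5. Among all genes 6.90% were called higher and 12.4% lower there. Between M2 and M0 the log2 differences were 0.28 for B2m, 0.38 for H2-D1 and 0.31 for Tapbp, where 3.44% of all genes were called higher. None of these members was called with DESeq2's size factors in edgeR. Between M1 and M2 the log2 differences were -0.32 for H2-M3, -0.57 for Tap1, -0.70 for Tap2 and -0.61 for Tapbp, where 9.68% of all genes were called lower.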

How the results depend on the processing

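No called log2 change of a member turned its direction under any alternative run. Leaving out single libraries gave 2 to 4 members called for ONX-0914 in M0, 3 to 7 in M2, 2 to 5 for M2 against M0, and 0 to 5 for the difference between M2 and M0, where the count over all genes ran from 660 to 1672. limma voom with quality weights called 4 members and 4622 genes for ONX-0914 in M0, and 5 members and 1847 genes for the difference between M2 and M0. The libraries of the comparison alone gave 7 members for ONX-0914 in M2, 3 for the difference between M1 and M0, and 1590 genes for that between M2 and M0. DESeq2 size factors gave 0 members for the latter. The causes were not tested. Requiring also an absolute log2 change of at least 1 left 0 members in every ONX-0914 comparison, in both comparisons of M2 with M0 and in the 3 differences of effects, by construction. Over all genes it left 263, 950 and 617 for ONX-0914 in M0, M1 and M2, 4152 for M1 against M0, 930 for M2 against M0, 3972 for M1 against M2, 4386 and 1024 for M1 and M2 against M0 under ONX-0914, and 435, 81 and 246 for the differences M1 minus M0, M2 minus M0 and M1 minus M2.

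Plain library sizes, added after seeing the data, changed 11 of 110 member values across the threshold. They moved the share of calls that were higher from 50.3% to 25.5% for M1 against M0, from 48.4% to 25.7% for M1 against M2, from 47.9% to 27.4% for M1 against M0 under ONX-0914, from 51.6% to 41.4% and from 54.4% to 39.2% for M2 against M0 without and with ONX-0914, from 45.5% to 54.2% for ONX-0914 in M0 and from 37.4% to 51.4% for ONX-0914 in M1. For the differences of effects they moved it from 35.8% to 49.2% (M1 minus M0), 55.7% to 44.0% (M2 minus M0) and 28.2% to 54.4% (M1 minus M2). Replicate numbers did not pair the libraries: same-numbered deviations correlated at -0.0518 to 0.108 over 60 pairs, 2 of them over 0.1, and 17 correlated best with their own number. The fit with a replicate block changed 1 call of 110, with H2-T23 called higher in M2 against M0 under ONX-0914 (0.16, adjusted p = 0.0458).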

Other observations

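Class I-like molecules, which share the fold but mostly not the peptide-loading route, went both ways. Of 12 listed, 9 could be tested: 4 were called higher and 4 lower in M1 against M0, and with ONX-0914 2 higher and 1 lower in M0, 5 and 1 in M1, and 3 and 2 in M2. The shares of all genes called higher and lower in M1 against M0 were 34.6% and 34.2%. With ONX-0914 they were 9.54% and 11.4% in M0, 16.6% and 27.7% in M1, and 17.6% and 18.8% in M2. Cd1d1, which presents lipids to NKT cells, was higher with ONX-0914 in each state: 11.1 to 19.5 CPM in M0 (log2 change 0.81, SE 0.10), 6.81 to 12.04 CPM in M1 (0.82, SE 0.11) and 12.8 to 20.7 CPM in M2 (0.70, SE 0.10). Procr, the endothelial protein C receptor, rose from 12.3 to 42.8 CPM with ONX-0914 in M2 (1.80, SE 0.11) and from 23.3 to 38.1 CPM in M0 (0.71, SE 0.10). In M1 against M0, Procr rose by 3.64, while Mr1, which presents vitamin B metabolites, fell by 1.76 and Hfe, a regulator of iron uptake, by 1.55 on the log2 scale.

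Of 7 class I turnover factors tested, 4 were called higher and 1 lower in M1 against M0, and 1 higher and 2 lower in M2 against M0. With ONX-0914, 2 were lower in M0, 1 was higher and 3 lower in M1, and 1 was higher and 1 lower in M2. Among all genes 34.6% were higher and 34.2% lower in M1, and 18.7% and 17.5% in M2. With ONX-0914 the shares of all genes were 9.54% and 11.4% in M0, 16.6% and 27.7% in M1, and 17.6% and 18.8% in M2. March9, a ubiquitin ligase that takes class I molecules from the surface, fell from 25.8 CPM in M0 to 5.82 CPM in M1 and 8.34 CPM in M2 (log2 changes -2.15 and -1.63). Susd6, which takes part in class I degradation, rose from 119 to 252 CPM in M1 (1.09, SE 0.04) and was lower with ONX-0914 in all 3 states (-0.21, -0.41 and -0.19).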
